A study of Mus musculus with 7 samples.

Results

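Neutrophils from mouse blood and infarcted hearts were examined for the stefin A genes Stfa1, Stfa2, Stfa2l1, Stfa3 and BC100530, which lie together on chromosome 16, and for Asprv1 on chromosome 6. The 6 genes were chosen by their symbols, and the symbols had been selected on values of these same data, namely levels in neutrophils against other cells and differences between days and between hashtags. Those contrasts are therefore given as a description with no test. All 6 were found among the 27998 gene rows of the 5 CD45+ matrices and among the 31053 gene rows of the matrices of both pools.

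The hearts came from C57BL6/J mice, and infarcts were made by ligation of a coronary artery. In a first experiment, CD45+ cells of male mice, without those stained by CD45.2 antibody given into the vein, were sorted at steady state without infarct and on days 1, 3, 5 and 7 after infarction, with 5, 5, 5, 5 and 3 mice pooled into 1 library each. A step that lowered the number of neutrophils preceded that sort, so the neutrophils kept may not stand for all. In a second experiment, called the heart pool here, CD11b+ cells of male mice that were not labelled from the blood carried Hashtag 1, 2 or 3 for day 1 (5 mice), day 3 (5 mice) or day 5 (3 mice) and were sequenced together. The last experiment, the blood and heart pool, held CD11b+ cells without Ter119, B220 or NK1.1 from mice aged 8 to 10 weeks, with Ly6G+ and Ly6G- cells brought to near equal numbers. Its mice had no surgery (3 mice), sham surgery 1 or 3 days before (3 mice each) or infarction 1 or 3 days before (5 mice each), and cells came from blood or ischemic heart. The 7 hashtags of that pool are not paired with these conditions in the labels, so each is given by its number, and blood and heart cells of the same mice may sit under different hashtags. Every day or hashtag was thus 1 pool of mice with no replicate mice, and intervals below are 95% intervals for counting error only.

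Stefins of type A are small cystatin-like proteins that work inside the cell, where they bind and block cysteine cathepsins, the papain-like proteases of lysosomes. The mouse genome holds a tandem array of such genes where other mammals have few, and several of them are known from neutrophils and from skin. Asprv1 encodes a retroviral-like aspartic protease best known from the epidermis, where it cuts profilaggrin, and its transcript is also known from neutrophils. Neutrophils themselves are short-lived granulocytes that enter an infarct from the blood within a day and lose the surface protein CD62L as they age or are activated.

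The 5 stefin members span 298.582 kb of chromosome 16 (GRCm38, GENCODE release M21 annotation). Stfa2l1 (chr16:36156811-36161953, ENSMUSG00000059657) and Stfa1 (chr16:36276951-36285373, ENSMUSG00000071562) lie on the plus strand. BC100530 (chr16:36359382-36367748, ENSMUSG00000071561), Stfa2 (chr16:36403992-36408457, ENSMUSG00000022902) and Stfa3 (chr16:36450537-36455392, ENSMUSG00000054905) lie on the minus strand. Stfa2, Stfa2l1 and Stfa3 each have 1 annotated transcript of 3 exons. Asprv1 (chr6:86628164-86629710, plus strand, ENSMUSG00000033508) has 1 transcript of a single exon.

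The starts of the 5 stefin genes are shown because their sequences are close copies of each other, a property read from the genome and not from the measured levels. Each line holds 150 bases before the RefSeq start and 30 bases from the start on (GRCm38.p6), on the gene's own strand from 5′ to 3′, with the runs of 13 bases or more that all 5 windows share in capitals. At the right end of BC100530, whose start is placed further upstream, only the first part of the last run is inside the printed stretch.
Stfa2l1, chr16:36156661-36156840: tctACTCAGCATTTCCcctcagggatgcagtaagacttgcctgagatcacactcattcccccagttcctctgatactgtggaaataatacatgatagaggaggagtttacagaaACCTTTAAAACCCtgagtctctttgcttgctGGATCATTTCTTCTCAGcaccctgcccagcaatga
Stfa1, chr16:36276998-36277177: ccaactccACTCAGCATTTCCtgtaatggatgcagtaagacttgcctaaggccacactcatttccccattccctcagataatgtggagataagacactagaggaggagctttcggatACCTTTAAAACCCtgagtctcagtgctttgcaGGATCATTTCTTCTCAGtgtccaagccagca
BC100530 (Cstdc5 in RefSeq), chr16:36367541-36367720: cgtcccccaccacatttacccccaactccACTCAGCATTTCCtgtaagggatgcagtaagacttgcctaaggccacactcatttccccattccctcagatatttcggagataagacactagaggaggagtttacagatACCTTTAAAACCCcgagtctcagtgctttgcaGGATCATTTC
Stfa2, chr16:36408334-36408513: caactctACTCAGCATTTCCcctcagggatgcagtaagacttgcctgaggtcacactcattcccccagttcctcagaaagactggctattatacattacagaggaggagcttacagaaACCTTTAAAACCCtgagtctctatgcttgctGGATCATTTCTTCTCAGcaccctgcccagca
Stfa3, chr16:36455363-36455542: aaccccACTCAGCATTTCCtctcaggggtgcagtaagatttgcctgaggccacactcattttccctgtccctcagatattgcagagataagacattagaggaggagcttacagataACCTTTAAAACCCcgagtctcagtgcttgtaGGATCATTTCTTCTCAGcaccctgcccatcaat

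Over windows of 300 bases (250 before and 50 after the start), the 10 pairs of stefin members had between 229 and 275 identical aligned bases (76.3% to 91.7%), with Stfa2 and Stfa2l1 at 91.7% and Stfa1 and BC100530 at 89.7%. All 5 windows shared 4 runs. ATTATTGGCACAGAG was found in 5 of 32851 RefSeq windows, ACTCAGCATTTCC in 10, ACCTTTAAAACCC in 9 and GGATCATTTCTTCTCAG in 6, and the windows outside the 5 members belonged to Csta1, Csta3, Cstdc3, Cstdc4 (the RefSeq name of Gm5483), Gm40403 or Gm7260. None of the 4 runs was in the Asprv1 window. On either strand, the letters TTGCNNAA, bound by CCAAT/enhancer binding proteins, were in 2 of the 6 member windows (Stfa1 and BC100530) and in 10.8% of all windows. GAGGAAG, bound by PU.1, was in the same 2 windows and in 13.6% of all windows, and TATAAA was in none of the 6 and in 13.6% of all. These are matches of letters only, and nothing about binding was measured.

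The likeness extends into the transcripts and limits how the counts of some members can be told apart. Stretches of 60 bases were taken from the longest transcript of each gene. Of these, BC100530 shared 26.4% with Stfa1 or the neighbouring gene BC117090, and Stfa1 shared 17.9% with BC100530 or BC117090. Stfa2l1 shared 16.9%, in part with Stfa2, and Stfa2 shared 10.2% with Stfa2l1. With stretches of 90 bases the shares were 16.6% for BC100530, 7.39% for Stfa1, 2.42% for Stfa2l1 and 2.09% for Stfa2. Stfa3 and Asprv1 shared none at either length. Near the 3′ end, where the tags come from, the shares of BC100530 and Stfa1 were higher. Of the last 441 stretches of 60 bases, BC100530 shared 33.6% and Stfa1 22.7%. Of the last 411 stretches of 90 bases, BC100530 shared 21.4% and Stfa1 9.49%. The shares of Stfa2 and Stfa2l1 were the same there as over the whole transcript. The read length is not given in the sources used here, so values of Stfa1, BC100530 and BC117090, and to a lesser degree of Stfa2 and Stfa2l1, are uncertain to the extent that the counting dropped or split shared reads.

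Cells were named here by clusters and marker genes. After filtering, 426 of 4745 cells were neutrophils in the CD45+ libraries, 1478 of 4263 in the heart pool and 6371 of 9999 in the blood and heart pool. Neutrophils had medians of 2994.5, 3915.5 and 3470 UMIs (unique molecular identifiers, 1 per transcript molecule) in the 3 experiments, against 8934.5, 27936 and 12834 in monocytes/macrophages. Sums over at least 30 neutrophils existed for days 1, 3 and 5 of the CD45+ libraries (216, 135 and 40 cells), for the same days of the heart pool (256, 1001 and 221 cells) and for each of 7 hashtags in the blood and heart pool (403 to 1143 cells), 13 sums in all, with 104690 to 4512797 UMIs each. Levels are UMI counts scaled to the total UMIs of such a sum (CPM), from 3′ tags and not divided by transcript length, so they are compared between samples and cells but not between genes. At most 28 cell barcodes were shared between any pair of libraries, those 28 between both pools. In the heart pool, a cluster of 1020 cells led by Tnf, Icam1 and Ccrl2 (cluster 3) was a neutrophil cluster under the naming rule used, but got no name when a smaller constant was added to both sides of the marker ratios. Day changes of the heart pool are given with and without it, and the other heart pool values include it.

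**Figure D1:**
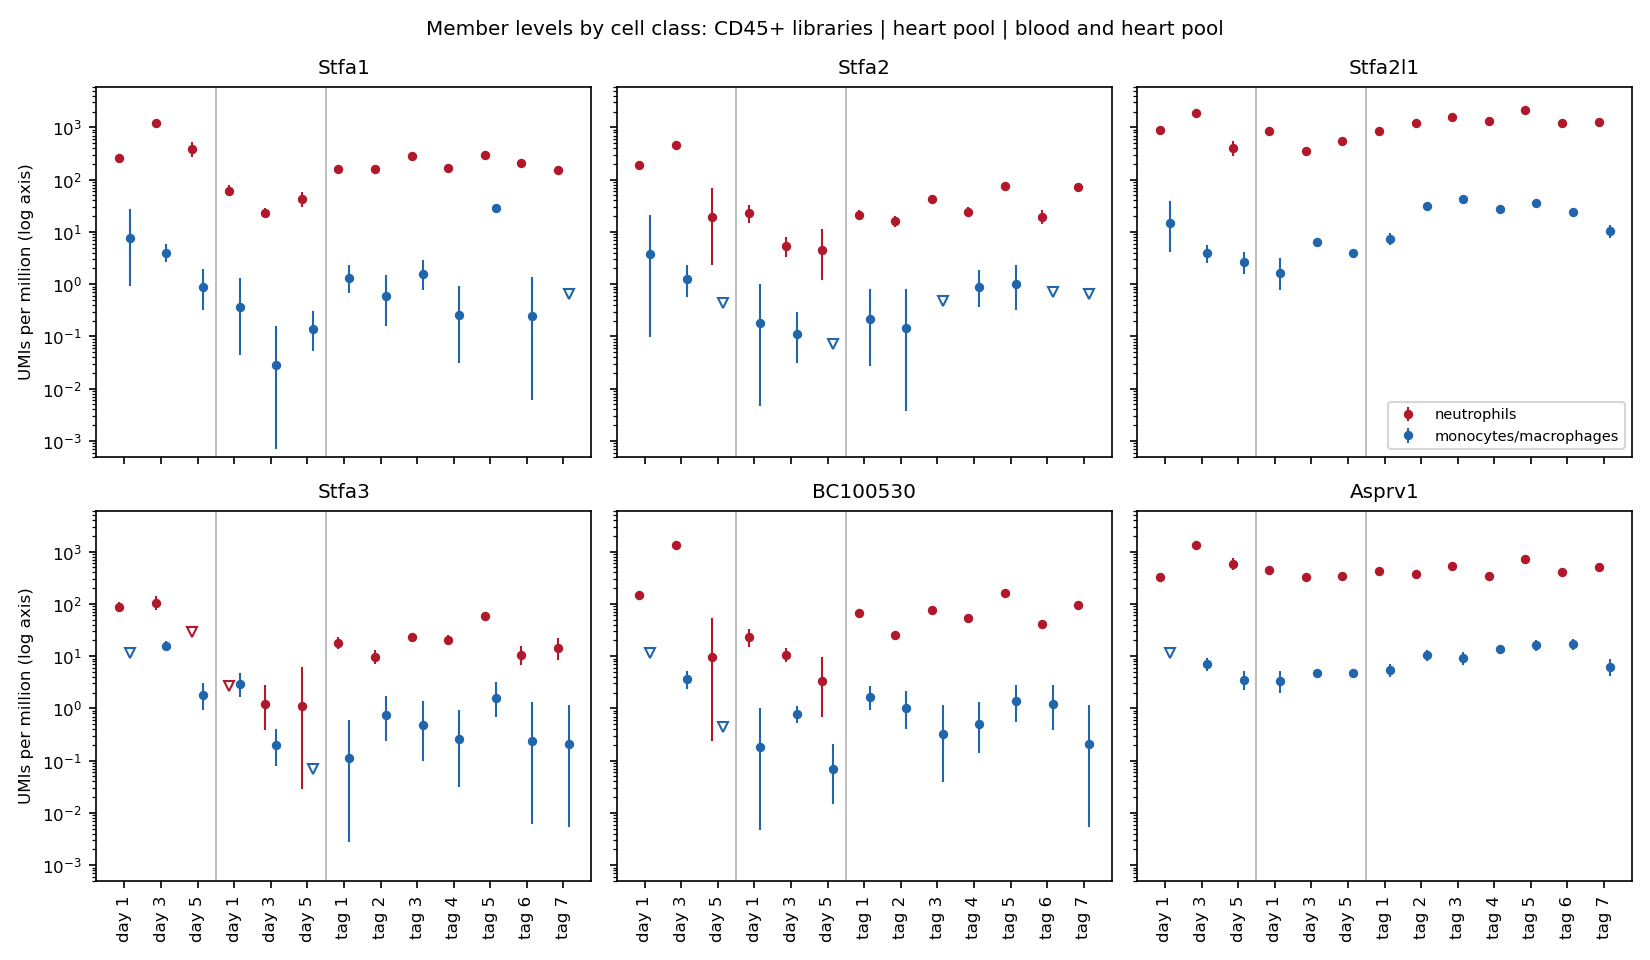
Levels of the 6 genes in CPM (log axis) in neutrophils (red) and monocytes/macrophages (blue), for days 1, 3 and 5 of the CD45+ libraries and of the heart pool and for the 7 hashtags (tags) in the blood and heart pool. Points are sums over cells, bars are exact 95% counting intervals, and open triangles mark 0 UMIs, placed at the level that 3 UMIs would give. Filled neutrophil points lie above the monocyte/macrophage points of the same day or hashtag for Stfa1, Stfa2l1 and Asprv1 in all 13 sums, and neutrophils had no Stfa3 UMI on day 5 of the CD45+ libraries and on day 1 of the heart pool.

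Stfa2l1 was the stefin member with a UMI in the most neutrophils of each experiment. In the CD45+ libraries its level was 899 CPM on day 1, 1854 CPM on day 3 and 401 CPM on day 5, with a UMI in 42.1%, 71.1% and 20% of neutrophils. It stood at 845, 354 and 546 CPM on the same days of the heart pool. Over the 7 hashtags the lowest level was 836 CPM (Hashtag 1), the median 1247 CPM and the highest 2172 CPM (Hashtag 5). Monocytes/macrophages held 1.66 to 42.3 CPM in the same 13 sums and were lower than neutrophils in each. The ratio of neutrophils to monocytes/macrophages ran from 37.6 to 508 with a median of 60.0, beside medians of 60.0 for S100a8 and 89.5 for S100a9, the calprotectin genes that mark neutrophils.

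Stfa1, another stefin of the array, differed more between experiments. Its neutrophil levels were 259, 1192 and 382 CPM on days 1, 3 and 5 of the CD45+ libraries and 61.4, 23.3 and 42.6 CPM in the heart pool. The blood and heart pool ran from 155 CPM (Hashtag 7) over a median of 168 CPM to 302 CPM (Hashtag 5). Levels in monocytes/macrophages were under those of neutrophils in 13 of 13 sums, by a median ratio of 270 that includes 1 lower bound. The smallest ratio, 10.7, was in Hashtag 5, where 105 of the 142 monocyte/macrophage UMIs of Stfa1 were in 1 cell.

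BC100530, whose transcripts are close to those of Stfa1, had 147, 1313 and 9.55 CPM on days 1, 3 and 5 of the CD45+ libraries, the last from 1 UMI. It had 22.8, 10.4 and 3.36 CPM in the heart pool, and from 25.0 to 162 CPM with a median of 68.0 CPM over the 7 hashtags. Stfa2 had 188, 470 and 19.1 CPM in the CD45+ libraries, 22.8, 5.35 and 4.48 CPM in the heart pool and 16.2 to 76.6 CPM, median 24.6 CPM, over the hashtags. Both were higher in neutrophils in every sum where either class passed 3 UMIs, 11 of 11 for BC100530 and 12 of 12 for Stfa2. Their median ratios to monocytes/macrophages were 104 and 82.7, which include lower bounds for sums with no monocyte/macrophage UMI.

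Stfa3 was the exception among the 6. Neutrophils held 87.5 CPM on day 1, 106 CPM on day 3 and 0 of 104690 UMIs on day 5 of the CD45+ libraries, and in the blood and heart pool its level was 9.75 to 57.9 CPM with a median of 18.0 CPM over the hashtags. The heart pool had only 6 Stfa3 UMIs in its 1478 neutrophils. Stfa3 was higher in neutrophils in 10 of 12 sums, and the other 2 had no neutrophil UMI, namely day 5 of the CD45+ libraries (12 monocyte/macrophage UMIs, all in 1 cell) and day 1 of the heart pool (16 UMIs in 2 cells, 14 of them in 1). On day 3 of the CD45+ libraries, monocytes/macrophages held 115 Stfa3 UMIs in 22 of 631 cells with up to 38 in a cell, while their 51 Asprv1 UMIs lay in 51 cells with 1 each. The Stfa3 UMIs of that class were thus bunched in few cells and the Asprv1 UMIs were spread 1 by 1.

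Asprv1, the aspartic protease gene, was found in neutrophils of every day and hashtag. Its neutrophil level was 327, 1327 and 583 CPM on days 1, 3 and 5 of the CD45+ libraries, 442, 326 and 347 CPM in the heart pool, and 343 to 731 CPM with a median of 426 CPM over the hashtags. All 13 sums were above monocytes/macrophages, by ratios of 24.3 to 188 with a median of 67.9, of which 1 is a lower bound. Epidermal genes were checked because Asprv1 and stefins are also skin transcripts. Of 17 epidermal genes, 12 to 16 had 0 UMIs in each of the 13 neutrophil sums, the list added up to 9.83 to 92.1 CPM led by Dmkn or Sfn, the keratins Krt1, Krt5, Krt10 and Krt14 had 9 UMIs in all sums together, and loricrin and filaggrin had 0.

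Few neutrophils were left at other times of the CD45+ libraries. On day 7, 28 neutrophils held 18 UMIs of Stfa2l1 and 6 of Asprv1 and none of the other 4 genes. At steady state, 7 neutrophils held 10 UMIs of Asprv1, 1 of Stfa2l1 and none of the rest. With 97624 and 14902 UMIs in these sums, levels under 30.7 CPM on day 7 and under 201 CPM at steady state were not detectable (3 UMIs). In 524 monocytes/macrophages at steady state the 6 genes together had 1 UMI, of Asprv1.

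A share of the member UMIs in monocytes/macrophages sat in a few cells that also carried the Ly6G antibody, which marks neutrophils. In the blood and heart pool, 37 of 3497 monocytes/macrophages had 10 or more stefin UMIs and held 71.3% of the stefin UMIs of the class. Their median Ly6G antibody count was 24, against 1 in the other monocytes/macrophages and 19 in neutrophils, and 97.3% of them against 6.13% of the rest passed the Ly6G gate. In the heart pool, 15 such cells held 70.9% of the stefin UMIs of the class, with a median Ly6G count of 335 against 114 in the rest, though the gate there took 98.0% of the rest too and separates little. Whether these barcodes held a neutrophil together with a monocyte or macrophage was not tested.

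**Figure D2:**
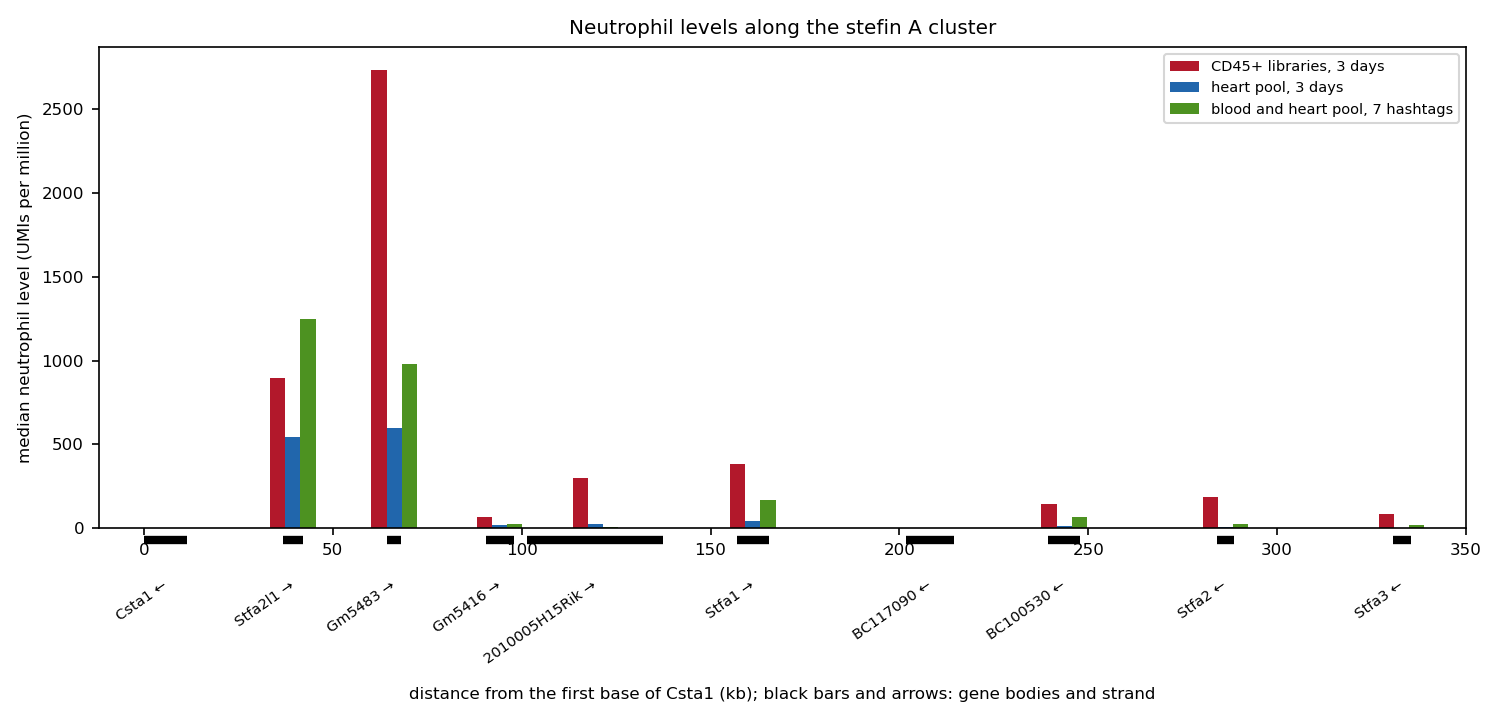
Median neutrophil level (CPM) of each annotated gene along the array, over the 3 day sums of the CD45+ libraries (red), the 3 day sums of the heart pool (blue) and the 7 hashtags in the blood and heart pool (green), by distance in kb. Bars of Csta1 and BC117090 are near 0 in all 3 experiments, and most members have lower bars in the heart pool than in the CD45+ libraries.

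The other genes of the array were not alike. Gm5483, named here after its values were seen, was at 2730, 3174 and 1299 CPM on days 1, 3 and 5 of the CD45+ libraries, at 2875, 599 and 495 CPM in the heart pool, and at 794 to 1692 CPM over the hashtags. BC117090 and Csta1, both stefin-like genes of the array, reached at most 7.08 and 2.36 CPM in any of the 13 sums. The low value of BC117090, which lies between Stfa1 and BC100530, is uncertain because its transcripts share stretches with both.

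The members were held by unequal numbers of cells. Stfa2l1 and Asprv1 had a UMI in 44.0% and 42.7% of the 6371 neutrophils of the blood and heart pool, and Stfa1, BC100530, Stfa3 and Stfa2 in 5.93%, 3.31%, 3.01% and 2.73%. The neutrophils with Stfa1 held 13 UMIs of it on average, and the most in a cell was 175. Of 1007 other genes with a like total in these neutrophils, 1 had more UMIs per positive cell, and their median was 1.47. In the same pool, the 1% of neutrophils highest for the gene (64 cells) held 58.4% of Stfa1, 75.1% of BC100530, 67.4% of Stfa3 and 83.7% of Stfa2 UMIs. That share was 10.4% for Stfa2l1, 11% for Asprv1, 4.50% for S100a8 and 2.51% for Csf3r, the receptor of granulocyte colony-stimulating factor.

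The CD45+ libraries, from other mice, also had these UMIs in few cells. All 685 UMIs of BC100530 were in 34 of 426 neutrophils, 20.1 per positive cell, more than any of 385 other genes of like total, whose median was 2.27. For Stfa1, 770 UMIs were in 46 cells, 16.7 per positive cell, with 1 of 348 other genes above it. In the heart pool, Stfa1 had 204 UMIs in 25 of 1478 neutrophils and Stfa2 52 UMIs in 10. Single cells therefore weigh on the sums: on day 1 of the CD45+ libraries 1 cell held 50.0% of the BC100530 UMIs and 39.6% of the Stfa1 UMIs, against 4.61% for Stfa2l1.

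**Figure D3:**
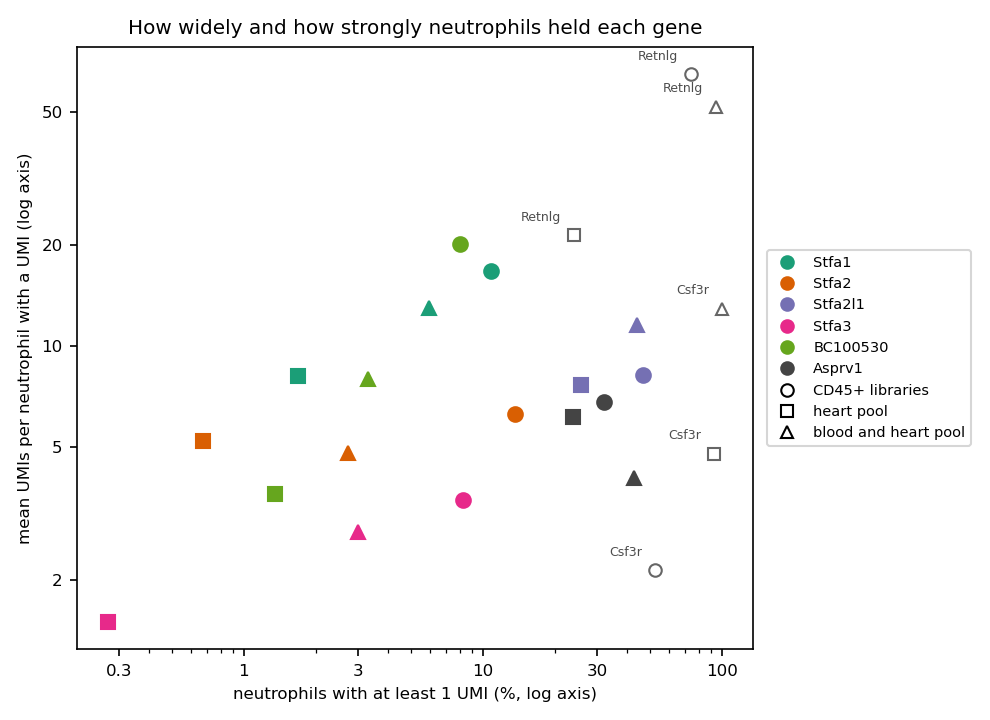
Share of neutrophils with at least 1 UMI (x axis, percent, log axis) and mean UMIs per neutrophil with a UMI (y axis, log axis) for the 6 genes, by experiment, with Csf3r and Retnlg as other neutrophil genes (open symbols). Stfa1 and BC100530 lie at few cells and many UMIs per cell, and Stfa2l1 and Asprv1 at far more cells.

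Some pairs of stefin members had UMIs in the same cells, to a degree that differed between experiments. In the CD45+ libraries, 90.4% of the BC100530 UMIs and 71.9% of the Stfa3 UMIs were in the 13.6% of neutrophils that had a Stfa2 UMI. For BC100530 the share was 20.8% in 0.677% of neutrophils of the heart pool and 43.7% in 2.73% of neutrophils of the blood and heart pool. For Stfa3 it was 0 of 6 UMIs in the heart pool and 24% in the blood and heart pool. Of Stfa1 UMIs, 58.2% were in cells with a Stfa2 UMI in the CD45+ libraries, 0 of 204 in the heart pool and 24.3% in the blood and heart pool. Only 10 heart pool neutrophils had a Stfa2 UMI, so its shares there say little. Neutrophils with a Stfa2l1 UMI were 46.7%, 25.6% and 44.0% of cells in the same order of experiments. They held 95.7%, 93.6% and 77.5% of Stfa1 UMIs and 95.5%, 84.7% and 84.9% of BC100530 UMIs. For Stfa2 the shares were 92.9%, 98.1% and 83.4%, and for Stfa3 79.3%, 50% (3 of 6 UMIs) and 65.5%. The Pearson correlation of log levels over cells of Stfa2 with BC100530 was 0.61, 0.33 and 0.34 in the CD45+ libraries (426 cells), the heart pool (1478 cells) and the blood and heart pool (6371 cells), and that of Stfa2 with Stfa1 was 0.30, -0.01 and 0.22. That of Stfa2l1 with Gm5483 was 0.66, 0.58 and 0.45. Asprv1 had no correlation above 0.24 with any of the 5 stefins. The 426 cells of the CD45+ libraries came from several libraries and days, and the cells of each pool from several days or hashtags. The shares and correlations therefore also hold differences in level between days or hashtags. They are descriptions only, cells of a library share its depth, and the part of reads shared between near copies was not tested.

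The neutrophils of different days fell in different clusters, which stands beside every change between days. In the CD45+ libraries, 99.5% of day 1 neutrophils were in cluster 13, led by Ngp and Retnlg, and 97.0% of day 3 and 100% of day 5 neutrophils were in cluster 12, led by G0s2 and Il1r2. Of day 1 neutrophils in the heart pool, 85.9% were in cluster 6, led by Retnlg and Gm5483, against 17.4% on day 3 and 29.0% on day 5, and the rest were in cluster 3. A further 201 cells of day 1 of the CD45+ libraries, in cluster 10 led by Saa3 and Cxcl3, had as many monocyte/macrophage as neutrophil markers and stayed unnamed. They held all 6 members at low levels, between 1.93 CPM (Stfa1 and Stfa2) and 7.73 CPM (Stfa2l1).

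In the CD45+ libraries, 3 of 6 members were at least 2-fold higher on day 3 than on day 1 and none was 2-fold lower, where 16.5% of all genes measured were 2-fold higher and 18.7% 2-fold lower. The changes, as log2 ratios of UMIs scaled by trimmed means (TMM), were 2.54 (2.27 to 2.83) for BC100530, 1.59 (1.36 to 1.83) for Stfa1 and 1.41 (1.20 to 1.62) for Asprv1. Those under 2-fold were 0.71 for Stfa2, 0.43 for Stfa2l1 and -0.32 for Stfa3, whose interval (-0.90 to 0.22) held 0 and whose sign turned under scaling by total counts. When cells were classed by their own markers, or 20% mitochondrial UMIs were allowed, day 1 had 414 and 436 neutrophils in place of 216, and all 6 genes were over 2-fold higher on day 3, Stfa3 by 1.69 and 2.01. The day 1 sum then held 2820718 and 3028598 UMIs in place of 866513. The unnamed cluster 10, low in all 6 genes, had 201 cells and 2070501 UMIs on day 1. Its part in these larger changes was not tested.

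From day 3 to day 5 of the CD45+ libraries, 6 of 6 members were at least 2-fold lower, beside 13.1% of all genes lower and 10.8% higher. Asprv1 differed by -1.50 (-1.92 to -1.13), Stfa1 by -1.95 (-2.47 to -1.50) and Stfa2l1 by -2.52 (-3.02 to -2.09). Day 5 had only 40 neutrophils, with 2 UMIs of Stfa2 (log2 change -4.63, interval -8.00 to -3.08), 1 of BC100530 (-6.85, interval -12.74 to -4.95) and 0 of Stfa3. Against a floor of 3 UMIs, Stfa3 was at least 4.65-fold lower. The drop is thus read from few cells, and for Stfa1 from 40 UMIs in 3 cells.

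In the heart pool the order of days was not the same. There 5 of 5 measured members were at least 2-fold lower on day 3 than on day 1, beside 12.7% of all genes lower and 16.6% higher, and Stfa3 was too rare to measure. Asprv1 differed by -1.09 (-1.24 to -0.94), Stfa2l1 by -1.91 (-2.02 to -1.79), Stfa1 by -2.05 (-2.51 to -1.58), BC100530 by -1.79 (-2.51 to -1.02) and Stfa2 by -2.74 (-3.63 to -1.87). The direction depended on which neutrophils were summed. Within cluster 6 alone, the values were 985 CPM on day 3 against 902 CPM on day 1 for Stfa2l1, 1054 against 451 CPM for Asprv1 and 101 against 45.8 CPM for Stfa1. On the TMM scale these log2 changes were -0.20, 0.90 and 0.81, and that of BC100530 was 0.27, while Stfa2 stayed lower, at 5.30 against 25.3 CPM from 4 and 26 UMIs.

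From day 3 to day 5 of the heart pool, 1 of 5 members was at least 2-fold lower and none higher, beside 5.03% of all genes lower and 5.79% higher. That member was BC100530, at -1.62 (-4.16 to -0.18) from 3 UMIs on day 5. Stfa2l1 differed by 0.44 (0.28 to 0.58), Stfa1 by 0.69 (0.10 to 1.23), Stfa2 by -0.31 (-2.44 to 1.11) and Asprv1 by -0.10 (-0.28 to 0.08). Within cluster 6, Stfa2l1 was at 1559 CPM and Asprv1 at 943 CPM on day 5, 2 UMIs of Stfa1 were left, and no BC100530 UMI was found.

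Cluster 3 held less of both widely expressed members than cluster 6 on days 3 and 5, and less Stfa2l1 on day 1. Stfa2l1 was at 340, 212 and 209 CPM on days 1, 3 and 5 in cluster 3, against 902, 985 and 1559 CPM in cluster 6. Asprv1 was at 357, 162 and 149 CPM against 451, 1054 and 943 CPM. Its intervals overlapped on day 1, at 256 to 484 CPM in the 36 cells of cluster 3 and 411 to 494 CPM in cluster 6. The clusters were made from the same transcripts, so the difference is a description. The part that the change of clusters between days, the chemistry, the annotation, the sort or the mice has in the opposite orders of the CD45+ libraries and the heart pool cannot be told apart from these data.

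**Figure D4:**
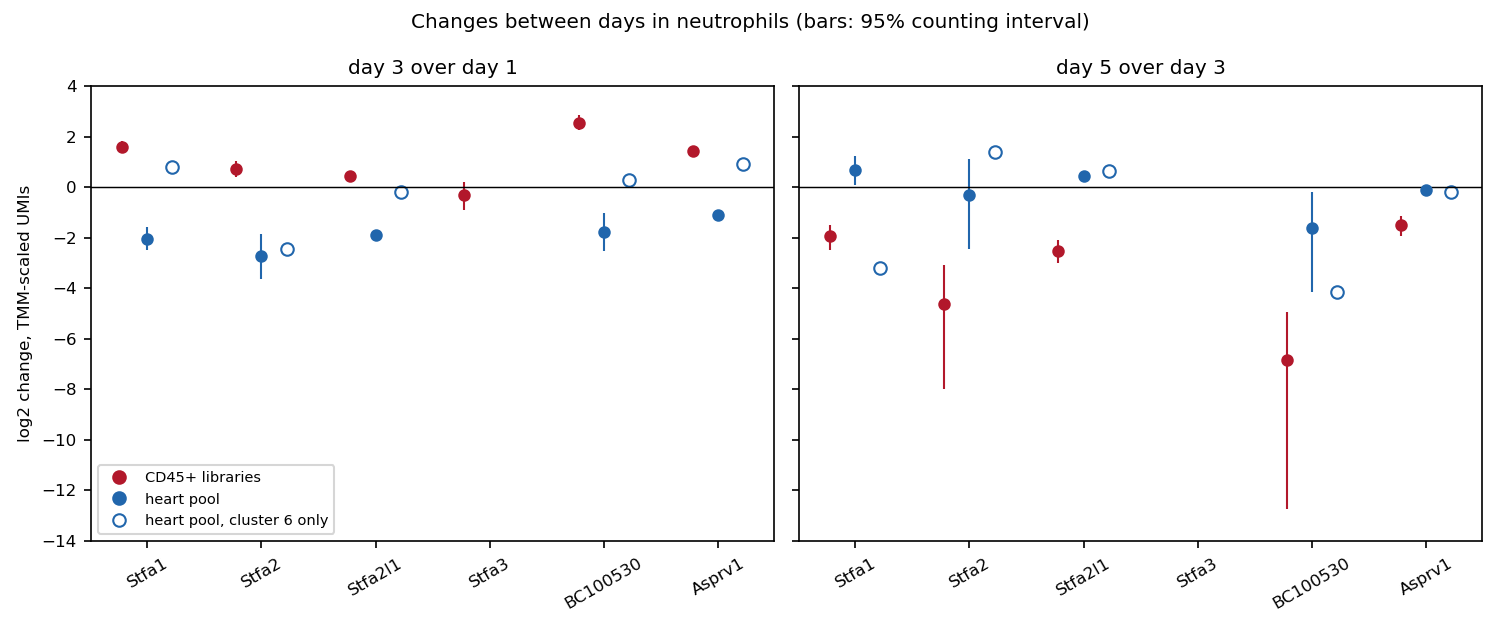
Log2 change of each gene in neutrophils from day 1 to day 3 (left) and from day 3 to day 5 (right) in the CD45+ libraries (red) and the heart pool (blue), on TMM-scaled UMIs with 95% counting intervals, and in cluster 6 of the heart pool alone (open circles, no interval). Filled points are missing where a gene had under 10 UMIs over both days or 0 UMIs on one of them. Open circles follow the counts of the whole heart pool and not those of cluster 6. From day 3 to day 5 the open circle of BC100530 thus rests on 29 and 0 UMIs, and that of Stfa2 on 4 and 3. From day 1 to day 3, red points lie above 0 except for Stfa3, filled blue points lie below 0, and 3 of the 5 open circles lie above 0.

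Hashtag 5 of the blood and heart pool was the highest of the 7 hashtags for 6 of 6 members, and its interval lay above that of the next hashtag for 4 of them (Stfa2l1, Stfa3, BC100530 and Asprv1). Of 3954 genes with at least the 534 UMIs of the rarest member, 6.5% were highest in Hashtag 5 and 0.506% had such an interval. The members were chosen in part for differences between hashtags, so nothing is read from these counts. Its neutrophils had a Stfa2l1 UMI in 61.7% and an Asprv1 UMI in 59.1% of cells, against 34.3% to 47.4% and 35.5% to 49.8% under the other hashtags. The lowest hashtag was not the same for all members, being Hashtag 1 for Stfa2l1, Hashtag 2 for Stfa2, Stfa3 and BC100530, Hashtag 4 for Asprv1 and Hashtag 7 for Stfa1. Of 6 neighbours in the order of levels, 2 pairs overlapped in their intervals for Stfa2l1, 3 for Asprv1, 4 each for Stfa1, Stfa2 and BC100530, and 5 for Stfa3. Fewer cells holding a gene and less of it per cell are both part of such sums.

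Hashtags also differed in the kind of neutrophil. Cluster 7, led by Cxcl2 and Il1r2, made up 62% of the neutrophils of Hashtag 7 and 43.4% of Hashtag 6, against 0.0906% to 1.20% under the other 5 hashtags. Within Hashtag 7, cluster 7 had 6 UMIs of Stfa1 in 250 cells (7.85 CPM), where cluster 0 had 131 UMIs in 114 cells (359 CPM). Asprv1 was at 229 CPM in the former and at 975 CPM in the latter, and Stfa2l1 at 641 and 2405 CPM. Within Hashtag 6, the corresponding levels were 117 and 289 CPM for Stfa1 but 503 and 346 CPM for Asprv1 and 1374 and 1100 CPM for Stfa2l1. Stfa2 was at 18.3 and 137 CPM under Hashtag 7 and at 9.41 and 28.5 CPM under Hashtag 6, and BC100530 at 41.9 and 153 CPM and at 25.1 and 53.6 CPM. For Stfa3 the levels were 2.62 and 30.1 CPM under Hashtag 7 and 6.27 and 7.78 CPM, with overlapping intervals, under Hashtag 6. Cluster 7 was thus lower than cluster 0 for all 6 genes under Hashtag 7, while under Hashtag 6 it was lower for Stfa1, Stfa2 and BC100530 and higher for Asprv1 and Stfa2l1.

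Surface CD62L gave a comparison that the rule for choosing the genes did not use. The neutrophils of each hashtag were split at that hashtag's median CD62L antibody share, so that both groups of cells came from the same mice, and UMIs were summed for CD62L-low and CD62L-high cells. An edgeR quasi-likelihood fit with the hashtag as block tested 6719 genes over the 14 sums and called 639 after Benjamini-Hochberg adjustment, of which 285 (4.24% of genes tested) were higher and 354 (5.27%) lower in CD62L-low cells. All 6 members passed the filter on low counts, 2 of them were called and both were lower in CD62L-low cells. All p-values here measure spread between hashtags, some of which may share mice.

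Stfa3 was the first. Its level was 17.3, 11, 17.3, 15.5, 37.6, 7.46 and 3.21 CPM in CD62L-low cells of Hashtags 1 to 7, against 18.7, 8.66, 28.1, 25.0, 75.1, 13.1 and 24.9 CPM in CD62L-high cells. It was lower in CD62L-low cells in 6 of 7 hashtags, with Hashtag 2 the other way, from 2 to 144 UMIs per sum. The fitted log2 change was -0.85 (SE 0.19, edgeR adjusted p = 0.00794). Without Hashtag 5 the adjusted p was 0.0786.

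Asprv1 was the second. CD62L-low cells held 384, 323, 476, 323, 603, 402 and 253 CPM under Hashtags 1 to 7, and CD62L-high cells 464, 407, 583, 362, 839, 429 and 738 CPM. The level was lower in CD62L-low cells in 7 of 7 hashtags, by 0.09 to 1.54 on the log2 scale. The fitted change was -0.61 (SE 0.16, edgeR adjusted p = 0.0435), close to the threshold of 0.05. Leaving out hashtags in turn gave edgeR adjusted p-values from 3.52e-06 to 0.0881, above the threshold without Hashtag 1, 2, 3 or 5.

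The other 4 members had fitted changes of the same sign that did not pass. Stfa2l1 had -0.35 (SE 0.14, edgeR adjusted p = 0.149), Stfa1 -0.77 (SE 0.41, 0.325), BC100530 -0.82 (SE 0.47, 0.367) and Stfa2 -0.64 (SE 0.48, 0.50). The errors of Stfa1, BC100530 and Stfa2 were larger than those of Asprv1 and Stfa3, and their hashtags differed in direction. Stfa2 was higher in CD62L-low cells by 2.11 in Hashtag 4 (73 against 19 UMIs) and lower by 2.62 in Hashtag 7 (12 against 79 UMIs). Stfa1 was lower in 6 of 7 hashtags and Stfa2, Stfa2l1 and BC100530 in 5 of 7.

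Hashtag 7 had the lowest value for each of the 6 members. There, 85.6% of CD62L-low and 38.3% of CD62L-high neutrophils were in cluster 7, and in Hashtag 6 the shares were 62.3% and 24.5%. CD62L-low cells also had fewer UMIs by the median in 6 of 7 hashtags. The part of these in the members' changes was not tested.

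**Figure D5:**
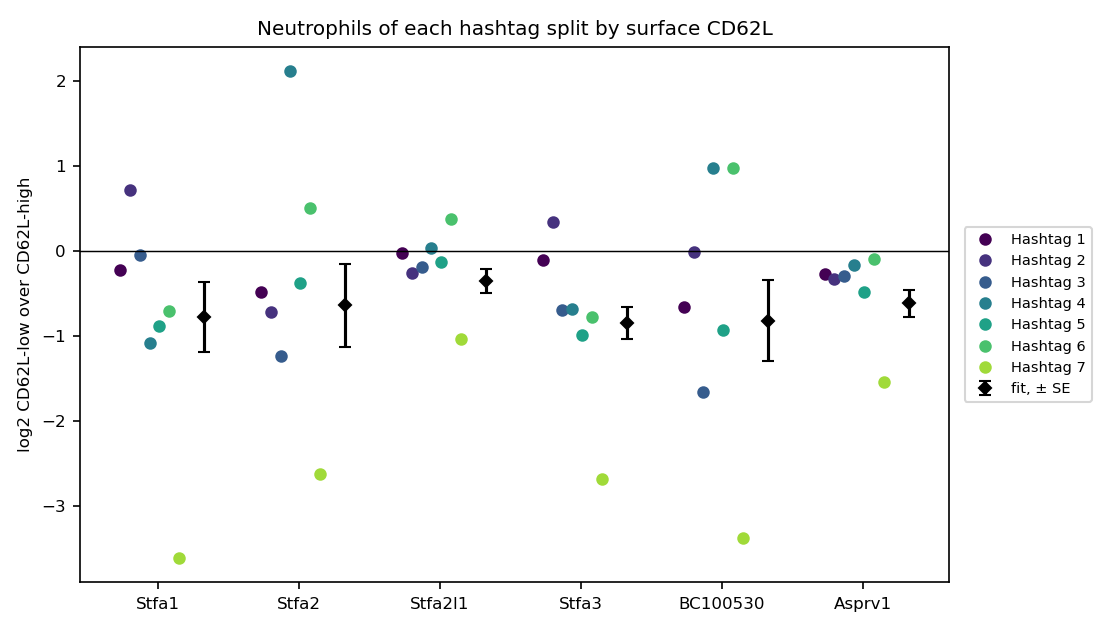
Log2 ratio of CD62L-low over CD62L-high neutrophils for each gene under each of the 7 hashtags (coloured points) and the fitted change with its SE (black diamonds). Hashtag 7 is the lowest point for every gene, and Asprv1 is the only gene with all 7 points below 0.

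Genes that stefins act on or that mark neutrophil stages were followed from lists. Of 10 cysteine cathepsins, the proteases that stefins block, 6 were measured between days 1 and 3 of the CD45+ libraries and 2 were at least 2-fold higher on day 3, Ctss by 2.17 and Ctsb by 1.11, with a median of 0.76 beside -0.03 over all genes. From day 3 to day 5 of the same libraries none of 6 was 2-fold higher and 1 was lower, Ctsc by -1.15, with a median of -0.52. Between days 1 and 3 of the heart pool, 8 were measured with a median of -0.45 beside 0.04 over all genes, 1 was 2-fold higher (Ctso, from 2 and 28 UMIs) and 1 lower (Ctsc by -1.08), and Ctss differed by -0.58. From day 3 to day 5 there, none of 8 was higher and 1 was lower, Ctsk by -1.20 from 32 and 3 UMIs, with a median of -0.31. In CD62L-low cells, 3 of 6 cathepsins measured were called and all 3 were higher, among them Ctss by 0.55 (SE 0.10, edgeR adjusted p = 0.00126) and Ctsc, which activates granule proteases, by 0.56 (SE 0.15, edgeR adjusted p = 0.0261). The median over the 6 was 0.29, beside 0.01 over all genes, of which 4.24% were called higher and 5.27% lower. For the day contrasts, the shares of all genes higher and lower are those given above beside the members. Among other cystatins only Cst3 and Cstb (stefin B) were measured, and neither was called between CD62L-low and CD62L-high cells.

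Genes of circulating mature neutrophils were followed beside the members. Of the 16 on that list, 9 were at least 2-fold lower and 2 higher on day 3 than on day 1 of the CD45+ libraries, where no member was 2-fold lower. Of all genes measured there, 18.7% were lower and 16.5% higher. From day 3 to day 5 of these libraries, 10 of 15 measured were lower and none higher, beside 13.1% and 10.8% of all genes. There 6 of 6 members were lower too. Of these 16, 14 were lower and none higher on day 3 than on day 1 of the heart pool, beside 12.7% and 16.6% of all genes. From day 3 to day 5 there, 2 of 16 were lower and 1 higher, beside 5.03% and 5.79% of all genes. In CD62L-low cells, 6 of 16 were called and all were lower, led by Retnlg (resistin-like gamma, a secreted neutrophil protein) at -1.32 (SE 0.27, edgeR adjusted p = 0.0269). Over all genes tested, 5.27% were called lower and 4.24% higher in CD62L-low cells. Of 10 specific granule genes measured, 2 were called and both were lower, Mmp8 (collagenase) by -1.26 and Lcn2 (lipocalin 2) by -0.78. Camp at 3.82 (SE 1.85, edgeR adjusted p = 0.284) and Ngp at 1.61 (SE 0.81, edgeR adjusted p = 0.302) were higher but not called. The median over the 10 granule genes was -0.10. Of 12 genes of neutrophils within infarcts, 5 were called and all were higher, with Rgs10 at 2.08 (SE 0.26, edgeR adjusted p = 6.94e-05), but that list came from these data and is no independent evidence.

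Genes with the most similar course over the 13 neutrophil sums were named by a rule, the Pearson correlation of log2(CPM + 1) after the mean of each experiment was taken off, among 4376 genes with a mean of at least 20 CPM. For the sum of the 5 stefin members these were Abcd2 (r = 0.89), Stk40 (0.88), Kmt2e (0.86), Tnfrsf1a (0.85) and Hbp1 (0.85). For Asprv1 they were Map1lc3b (0.93), Hist1h2be (0.90), Il15 (0.87), Irf2 (0.87) and Spidr (0.86). Among the members, Stfa1 was closest to Asprv1 (0.89) and Stfa3 farthest from it (0.22). The 13 sums share experiments and pools of mice, and no p-value is given.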

How the data were processed

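Transcripts of single cells were measured with 10x 3′ libraries. The authors deposited counts of UMIs per gene and cell, made with Cell Ranger (version 3.0.2 for both pools, per the file headers) on GRCm38/mm10 per the submitters' processing notes. The annotation release is not given in the sources used here. A cell needed 200 genes, and mitochondrial UMIs could make up 10% of its total. Computed doublet calls were left out in the CD45+ libraries only. In both pools, cells with several hashtags or none were left out, so doublets of cells under the same hashtag may remain. Cells were clustered (scanpy 1.11.5, Leiden resolution 0.5) and named by marker genes. Member UMIs were summed per day or hashtag over at least 30 cells. Day changes used TMM scaling and genes with at least 10 UMIs over both sums. CD62L-low and CD62L-high sums were tested with edgeR 4.0.16 (quasi-likelihood, hashtag block, Benjamini-Hochberg). On simulated data for that comparison over 6719 genes, the fit recovered 81 of 100 genes changed 2-fold and 87 of 100 changed 4-fold, and called 13 unchanged genes. Genes to name were the 6 members, the 5 most alike in pattern, and from each list the 2 highest and 2 lowest changes, Gm and Rik names left out. The members and lists were chosen with earlier results of these data known. Alternatives were other scalings, filters, cell classes, fold thresholds, DESeq2 1.42.0 and leaving out hashtags. The level of 1 further transcript in the CD62L comparison is not reported here.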

Additional observations from a re-analysis of the deposited data

Results flagged for a closer look

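In the CD62L comparison, Hashtag 7 stood apart from the other 6 hashtags for Stfa1, at a log2 change of -3.61, and for Asprv1, at -1.54. Chance alone sets a sample apart in this way in about 1 of 20 groups, and Hashtag 7 is also the hashtag with the largest share of neutrophils in cluster 7 (62%). The part of that cluster was not tested.

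Day changes of 5 members had opposite signs in the CD45+ libraries and the heart pool, with 1 sum per day in each, and the difference was not tested. From day 1 to day 3 the log2 changes were 1.59 and -2.05 for Stfa1, 0.71 and -2.74 for Stfa2, 0.43 and -1.91 for Stfa2l1, 2.54 and -1.79 for BC100530, and 1.41 and -1.09 for Asprv1. From day 3 to day 5 they were -1.95 and 0.69 for Stfa1 and -2.52 and 0.44 for Stfa2l1.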

How the results depend on the processing

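From day 1 to day 3 of the CD45+ libraries, 3 members were at least 2-fold higher, against 5 with total counts, 6 with cells classed by own markers, 6 with a 20% mitochondrial filter and 1 at 4-fold. In the heart pool, 5 were lower, against 3 by own markers, 1 with the 20% filter, 1 without cluster 3 (added after seeing the data) and 2 at 4-fold. The 20% filter is looser, but its cells were clustered and named anew. That gave 233, 257 and 81 cells named neutrophils on days 1, 3 and 5 in place of 256, 1001 and 221. Leaving out cluster 3 gave 220, 174 and 64. Whether the cells of cluster 3 were those that lost the name under the 20% filter was not tested. Without cluster 3 the log2 change turned to 0.81 for Stfa1, 0.27 for BC100530 and 0.90 for Asprv1, and with the 20% filter to 0.63 for Asprv1. From day 3 to day 5 of the heart pool, 1 member was lower, against 6 in the Ly6G gate (which held most monocytes/macrophages too), 2 without cluster 3, 2 without the top cell (added after seeing the data) and 0 at 4-fold, and 1 was higher at 1.5-fold where 0 were at 2-fold. With scaling by total counts the median of all genes was 0.58 and 0.30 in the CD45+ libraries, 0.69 and 0.22 in the heart pool and 0.19 for CD62L. With TMM scaling these medians were -0.03, -0.03, 0.04, 0.04 and 0.01.

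For CD62L, 639 genes and 2 members were called, against 1594 and 1 with total counts, 417 genes with DESeq2, 2811 and 4 in the Ly6G gate, 1 member with raw antibody UMIs and 1 with the 20% filter. The member called with raw antibody UMIs was BC100530 (edgeR adjusted p = 0.0278). Neither Stfa3 (edgeR adjusted p = 0.0773) nor Asprv1 (edgeR adjusted p = 0.104) passed in that split. Total counts split the calls into 1479 higher and 115 lower. Both groups of cells of a hashtag come from the same mice. Without the replicate block for hashtags, 1 gene and 0 members were called, with 589 genes at an unadjusted p under 0.05. Leaving out hashtags in turn gave 361 to 738 genes and 0 to 3 members, the lowest count of genes without Hashtag 1 and of members without Hashtag 5. All 6 members had negative fitted changes in the 16 alternatives, and Stfa3 was called in 13, Asprv1 in 7, Stfa2l1 and BC100530 in 3 each, and Stfa1 and Stfa2 in 0. Of 288 neutrophil levels, 203 moved by less than their counting interval, as did 99 of 154 day changes. Each day or hashtag is 1 pool of mice, Stfa1, Stfa2, Stfa3 and BC100530 rest on few cells, and day 5 of the CD45+ libraries on 40.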

Other observations

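Splits of the blood and heart pool neutrophils by 14 surface antibodies were made in the same way for Stfa2l1 and Asprv1, with no test. Stfa2l1 was higher in Ly6G-low cells in 7 of 7 hashtags, by 0.11 to 0.75 on the log2 scale, and in CD49d-low cells in 7 of 7, by 0.02 to 0.24. Asprv1 was higher in SiglecF-low cells in 7 of 7 hashtags, by 0.00171 to 2.46 with a median of 0.16, and in Ly6G-low cells in 2 of 7. Stfa2l1 was higher in SiglecF-low cells in 4 of 7, with a median of 0.01. The 7 of 7 splits were picked from those of 14 antibodies for both genes. Apart from CD62L for Asprv1, the other splits had hashtags in both directions. Ly6G is the antibody that the sort used to set the share of neutrophils.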
